A study of Mus musculus with 115 samples.

Results

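Aminoacyl-tRNA synthetases were followed in hearts of mice knocked out for the heart and muscle adenine nucleotide translocator Ant1, the protein encoded by Slc25a4. The genes were the cytosolic synthetases and the mitochondrial enzymes whose symbols end in 2, taken by name and not by their values. They numbered 36 of the 23930 genes on the expression panel, 20 cytosolic and 16 mitochondrial.

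Each synthetase joins 1 amino acid to its tRNA, and the charged tRNA is what the ribosome reads. Cells keep separate sets of these enzymes for the ribosomes of the cytosol and for those inside mitochondria, which make the mitochondrially encoded subunits of the respiratory chain and of ATP synthase. Both sets are encoded in the nucleus, Gars and Kars serve both compartments from 1 gene, and several cytosolic enzymes sit together in the multisynthetase complex. In mammalian cells many cytosolic synthetase genes are known targets of ATF4, the transcription factor of the amino acid and integrated stress response, which binds the C/EBP-ATF response element.

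The study measured bulk RNA from whole hearts of C57BL/6JEiJ mice with the Ion AmpliSeq mouse transcriptome panel, which reads 1 short amplicon per gene. Mice received 2.5e+11 vector genomes of adeno-associated virus into the pericardium, either AAV2/9Des-Gfp-mAnt1, called the Ant1 vector here, or AAV2/9Des-Gfp, called the control vector. Hearts were taken 1, 3, 6, 9 and 12 months later, and the sources used here do not say when each heart was taken, so differences in time were not tested. All mice carried a vector. With the control vector there were 3 C57BL/6JEiJ Ant1-/- ND6P25L hearts (knockout ND6, in which a P25L change in the mitochondrial gene ND6 is added to the knockout), 3 C57BL/6JEiJ Ant1-/- hearts (knockout) and 4 C57BL/6JEiJ hearts (wild type). With the Ant1 vector there were 3 knockout ND6, 4 knockout and 3 wild type hearts. Knockout ND6 hearts 61 and 91 had labels that disagreed on the vector and stayed a group of their own. Hearts are named by the number in their labels, which restarts between groups.

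The 22 hearts held 110 libraries, with 16827518 to 54779297 counts per heart after summing. Slc25a4 read 0.331 to 2.03 CPM (the depth-scaled read count) in knockout and 0.219 to 0.851 CPM in knockout ND6 hearts with the control vector, against 8464 to 11380 CPM in wild type hearts. After the Ant1 vector it read 174 to 241 CPM in knockout hearts, and 55.6, 66.7 and, in heart 8, 0.732 CPM in knockout ND6 hearts, against 8968 to 10260 CPM in wild type hearts. Heart 8, labelled with the Ant1 vector, thus had about as little Slc25a4 RNA as control-vector hearts. Heart 61 read 169 CPM and heart 91 read 151 CPM. Summed cardiomyocyte markers, 8 of 8 on the panel, lay between 86000 and 107100 CPM in every group. The synthetases had a median of 217 to 6107 counts per heart in the genes tested. Pars2, the mitochondrial prolyl enzyme, never passed 3 counts in a heart and was not tested, so 35 of 36 genes were. Since each gene is read through 1 amplicon, levels are not compared between genes. In bulk hearts, fewer cells of a type and less RNA per cell cannot be told apart.

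The sequence around the start of transcription was searched for the response element TGATGNAA on both strands, because it is the element through which amino acid shortage is known to act on synthetase genes. Windows of 250 bases before to 50 bases after the start were found for 27 of the 36 genes in RefSeq (GRCm38.p6). The element was present in 5 of 13 cytosolic and 0 of 14 mitochondrial promoters, against 3.97% of all 32851 promoters. The 5 genes were Aars, Gars, Iars, Tars and Yars, for alanine, glycine, isoleucine, threonine and tyrosine. Their sequences from base -170 to base 30 of the start are printed with each match in capitals, and Sars, the seryl enzyme, is printed as a promoter without a match.
Aars (chr8:111033672-111033871, plus strand): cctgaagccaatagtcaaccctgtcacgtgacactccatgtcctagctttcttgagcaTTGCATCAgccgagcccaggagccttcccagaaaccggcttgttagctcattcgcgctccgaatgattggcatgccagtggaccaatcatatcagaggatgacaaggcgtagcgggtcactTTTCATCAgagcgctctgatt
Gars (chr6:55037831-55038030, plus strand): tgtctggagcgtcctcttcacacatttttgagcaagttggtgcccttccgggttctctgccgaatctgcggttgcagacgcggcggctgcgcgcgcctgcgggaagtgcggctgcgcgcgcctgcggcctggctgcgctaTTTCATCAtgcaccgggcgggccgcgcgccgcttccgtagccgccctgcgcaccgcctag
Iars (chr13:49681960-49682159, plus strand): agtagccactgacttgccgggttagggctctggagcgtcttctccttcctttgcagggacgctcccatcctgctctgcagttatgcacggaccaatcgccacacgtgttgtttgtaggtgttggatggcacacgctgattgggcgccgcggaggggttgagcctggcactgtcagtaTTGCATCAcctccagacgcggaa
Yars (chr4:129189733-129189932, plus strand): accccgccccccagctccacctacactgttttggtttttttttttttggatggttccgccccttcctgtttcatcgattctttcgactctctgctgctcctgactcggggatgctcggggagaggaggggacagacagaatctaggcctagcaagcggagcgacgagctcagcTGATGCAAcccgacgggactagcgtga
Tars (chr15:11399629-11399828, minus strand): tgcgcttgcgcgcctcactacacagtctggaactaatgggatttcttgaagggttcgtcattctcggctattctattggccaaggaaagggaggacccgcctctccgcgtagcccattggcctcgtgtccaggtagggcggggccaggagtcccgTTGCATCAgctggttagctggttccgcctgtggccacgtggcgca
Sars (chr3:108445230-108445429, minus strand): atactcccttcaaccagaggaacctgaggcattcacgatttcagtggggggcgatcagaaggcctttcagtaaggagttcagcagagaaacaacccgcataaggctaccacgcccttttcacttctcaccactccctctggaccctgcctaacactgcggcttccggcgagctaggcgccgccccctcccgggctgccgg
Aars carried 2 matches, beginning at bases -112 and 10, while the others carried 1 each, at -30 in Gars, 8 in Iars, -15 in Tars and 4 in Yars. Matches in Aars, Gars, Iars and Tars read as TTGCATCA or TTTCATCA, the reverse strand of the element, and Yars holds TGATGCAA. The NRF1 element, searched in the same way, was found in Farsb, Kars and Tars among cytosolic and in Iars2 and Mars2 among mitochondrial genes, against 4.6% of all promoters. The ETS element CCGGAAGT was found in Farsa, Mars and Rars2, against 3.89%, and the estrogen-related receptor element TCAAGGTCA in none of the 27, against 0.42%.

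The knockout and knockout ND6 hearts are together called mutant, whatever their vector. Against wild type hearts, 7 to 11 of 20 cytosolic and 2 to 6 of 15 mitochondrial synthetases were called higher in each comparison. The difference between the sets was not tested. With the control vector, 8 of 20 cytosolic genes passed the test as higher in knockout than in wild type hearts and 0 as lower (edgeR quasi-likelihood test, adjusted p under 0.05 over 15403 genes), where 8.19% of all genes were called higher and 6.23% lower. They were Aars, Farsa, Gars, Iars, Mars, Nars, Sars and Yars. Of 15 mitochondrial genes tested, 6 were higher, Aars2, Fars2, Rars2, Sars2, Vars2 and Yars2, and 1, Wars2, was lower. The median log2 difference was 0.25 over the cytosolic genes and 0.12 over the mitochondrial genes, against -0.03 over all genes, and 20 of 20 cytosolic and 11 of 15 mitochondrial differences were above 0, against 46.8% of all genes. Knockout ND6 hearts had 11 cytosolic and 5 mitochondrial genes higher than wild type and 0 lower, where 6.71% of all genes were called higher and 5.97% lower. The genes called there and not in knockout hearts were Cars, Eprs, Lars and Lars2, and those called in knockout hearts alone were Sars2, Yars2 and Wars2. These comparisons share the same 4 wild type hearts, and the difference between the mutant groups was tested directly, as given further on. The count of 16 for knockout ND6 hearts rested on single hearts, with 6 left without knockout ND6 heart 22, 8 without knockout ND6 heart 21 or wild type heart 70, 9 without wild type heart 23 and 10 without knockout ND6 heart 20.

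With the Ant1 vector, which used other hearts throughout, 7 cytosolic and 2 mitochondrial genes were higher in knockout than in wild type hearts and 1 mitochondrial gene was lower (edgeR), where 5.37% of all genes were called higher and 4.53% lower. Knockout ND6 hearts with that vector had 10 cytosolic and 3 mitochondrial genes higher and 1 mitochondrial gene lower than wild type, where 10.8% of all genes were called higher and 8.71% lower. The median cytosolic log2 difference was 0.24 in knockout and 0.27 in knockout ND6 hearts, and the median mitochondrial one 0.08 and 0.02, against 0.01 and 0.00 over all genes. In each of them 19 of 20 cytosolic genes were above 0, against 51.4% and 49.8% of all genes. The lone exception both times was Tars, at -0.07 in knockout and -0.19 in knockout ND6 hearts. Without wild type heart 80 the counts of 10 and 14 called genes became 5 in knockout and 9 in knockout ND6 hearts, and without wild type heart 83 the first became 6.

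**Figure D1:**
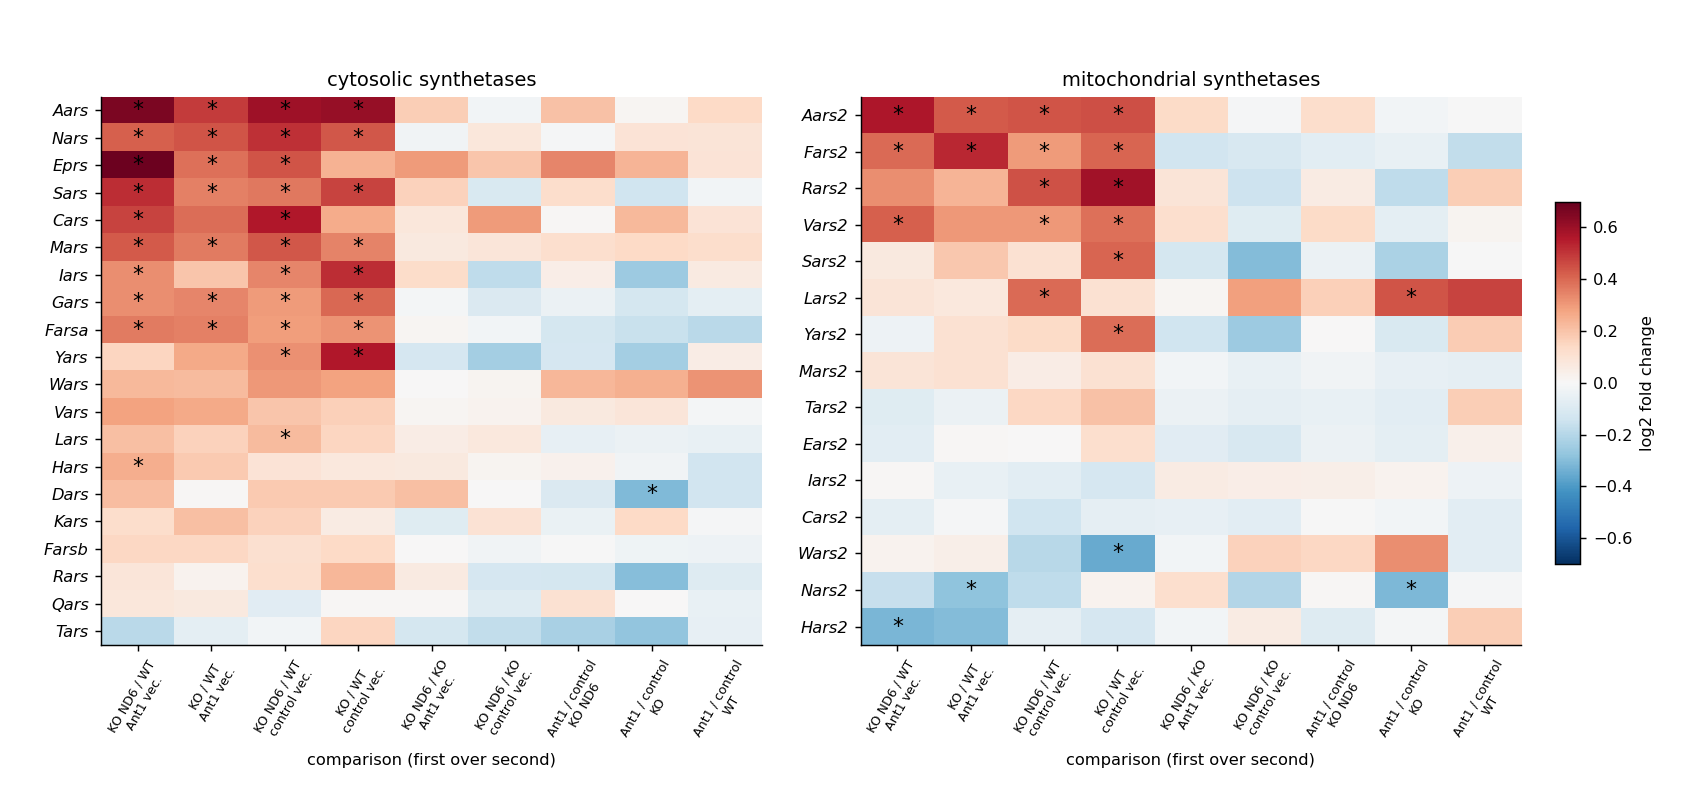
Log2 difference of each tested synthetase gene (rows, cytosolic in the left panel and mitochondrial in the right) in each comparison (columns), with colour from lower to higher in the first-named group and an asterisk where edgeR's adjusted p was under 0.05. Aars, Nars, Sars, Gars, Mars, Farsa, Aars2 and Fars2 carry an asterisk in each of the 4 comparisons with wild type hearts, and the columns that set the mutants against each other carry none.

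Aars, which charges alanine tRNA, had the largest rise of the cytosolic genes in 3 of the 4 comparisons with wild type hearts. With the control vector it read 89.5, 101 and 105 CPM in knockout ND6 hearts 20, 21 and 22 and 111, 92 and 96.2 CPM in knockout hearts 35, 36 and 38, against 62.6, 65.3, 68.3 and 64.9 CPM in wild type hearts 23, 24, 25 and 70. With the Ant1 vector it read 97.4, 106 and 138 CPM in knockout ND6 hearts 5, 8 and 37 and 121, 90.4, 99.7 and 92.1 CPM in knockout hearts 20, 21, 22 and 27, against 61.7, 82.6 and 71.1 CPM in wild type hearts 80, 81 and 83. No mutant heart reached down to a wild type heart with either vector. The log2 differences were 0.59 ± 0.12 and 0.61 ± 0.12 (SE) for knockout ND6 and knockout hearts with the control vector (edgeR, adjusted p = 0.00259 and 0.00149), and 0.66 ± 0.13 and 0.49 ± 0.12 with the Ant1 vector (adjusted p = 0.00133 and 0.0146). The knockout call with the Ant1 vector was lost without wild type heart 80 or 83. Aars lies on chromosome 8 (mm10, chr8:111033144-111057664).

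Sars, the seryl enzyme, was among the steadiest. It read 126, 130 and 137 CPM in knockout ND6 hearts and 148, 129 and 145 CPM in knockout hearts with the control vector, against 102, 102, 106 and 94.9 CPM in wild type hearts. In hearts given the Ant1 vector it read 136, 148 and 144 CPM in knockout ND6 and 140, 123, 134 and 115 CPM in knockout hearts, against 96.0, 104 and 99.7 CPM in wild type hearts. Again every mutant heart stood above every wild type heart. The log2 differences were 0.37 ± 0.08, 0.47 ± 0.08, 0.52 ± 0.08 and 0.35 ± 0.08 (SE) in the order of those groups (edgeR, adjusted p = 0.00296, 0.00024, 0.000219 and 0.00546). Sars, Nars and Aars2 were the genes whose 4 calls held under every alternative tried, including each heart left out.

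Nars, which charges asparagine tRNA, read 126, 124 and 139 CPM in knockout ND6 hearts and 138, 118 and 113 CPM in knockout hearts with the control vector, against 89.4, 88.5, 87.6 and 98.5 CPM in wild type hearts. In Ant1-vector hearts it read 117, 133 and 137 CPM in knockout ND6 and 144, 122, 139 and 120 CPM in knockout hearts, against 92.9, 106 and 91.3 CPM in wild type hearts. Mutant and wild type hearts did not overlap, and the log2 difference lay between 0.42 and 0.51 in the 4 comparisons. Iars, the isoleucyl enzyme and part of the multisynthetase complex, read 75.4, 79.0 and 82.4 CPM in knockout ND6 hearts and 95.8, 83.5 and 88.1 CPM in knockout hearts with the control vector, against 64.1, 66.2, 57.5 and 61.6 CPM in wild type hearts. After the Ant1 vector Iars read 75.0, 78.1 and 91.8 CPM in knockout ND6 and 79.1, 72.3, 71.6 and 75.6 CPM in knockout hearts, against 67.5, 68.3 and 59.9 CPM in wild type hearts. The groups did not overlap, but the knockout difference with the Ant1 vector, 0.20 ± 0.09 (SE) on the log2 scale, missed the threshold (edgeR, adjusted p = 0.176). Its knockout ND6 calls were lost without knockout ND6 heart 22 for the control vector and without knockout ND6 heart 37 or wild type heart 83 for the Ant1 vector.

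Gars, the glycyl enzyme of both compartments, and Mars and Farsa, for methionine and phenylalanine, passed the test in all 4 comparisons with smaller differences. Gars read 65.6, 63.0 and 70.6 CPM in knockout ND6 and 70.8, 74.0 and 69.0 CPM in knockout hearts with the control vector, against 53.1, 59.2, 58.2 and 45.5 CPM in wild type hearts. With the Ant1 vector Gars read 59.6, 64.1 and 70.0 CPM in knockout ND6 and 71.9, 57.0, 63.5 and 68.9 CPM in knockout hearts, against 48.1, 50.6 and 55.7 CPM in wild type hearts, with no overlap within either vector. Mars ranged from 34.3 to 49.2 CPM over the mutant hearts, against 28.2 to 34.5 CPM over the wild type hearts. Mars differed by 0.35 to 0.44 on the log2 scale and Farsa by 0.29 to 0.36. The calls of Farsa were the least firm of the 8, with 5 of 12 and 3 of 13 alternatives keeping them in knockout and knockout ND6 hearts with the control vector. Those of Gars and Mars, except Gars in knockout and Mars in knockout ND6 hearts with the control vector, were each lost under at least 1 left-out heart. Farsa encodes 1 of the 2 subunits of its enzyme, and Farsb, which encodes the other, was called in none of the 4, with differences of 0.11 to 0.14. Farsa lies on the plus strand of chromosome 8 (mm10, chr8:84856989-84869257). It begins 10054 bases from the 5′ end of Calr, which lies on the minus strand. Calr read 2.43 to 4.58 CPM in every mutant heart, against 492 to 577 CPM in wild type hearts. What the state of Calr in these mice has to do with the Farsa values was not tested.

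**Figure D2:**
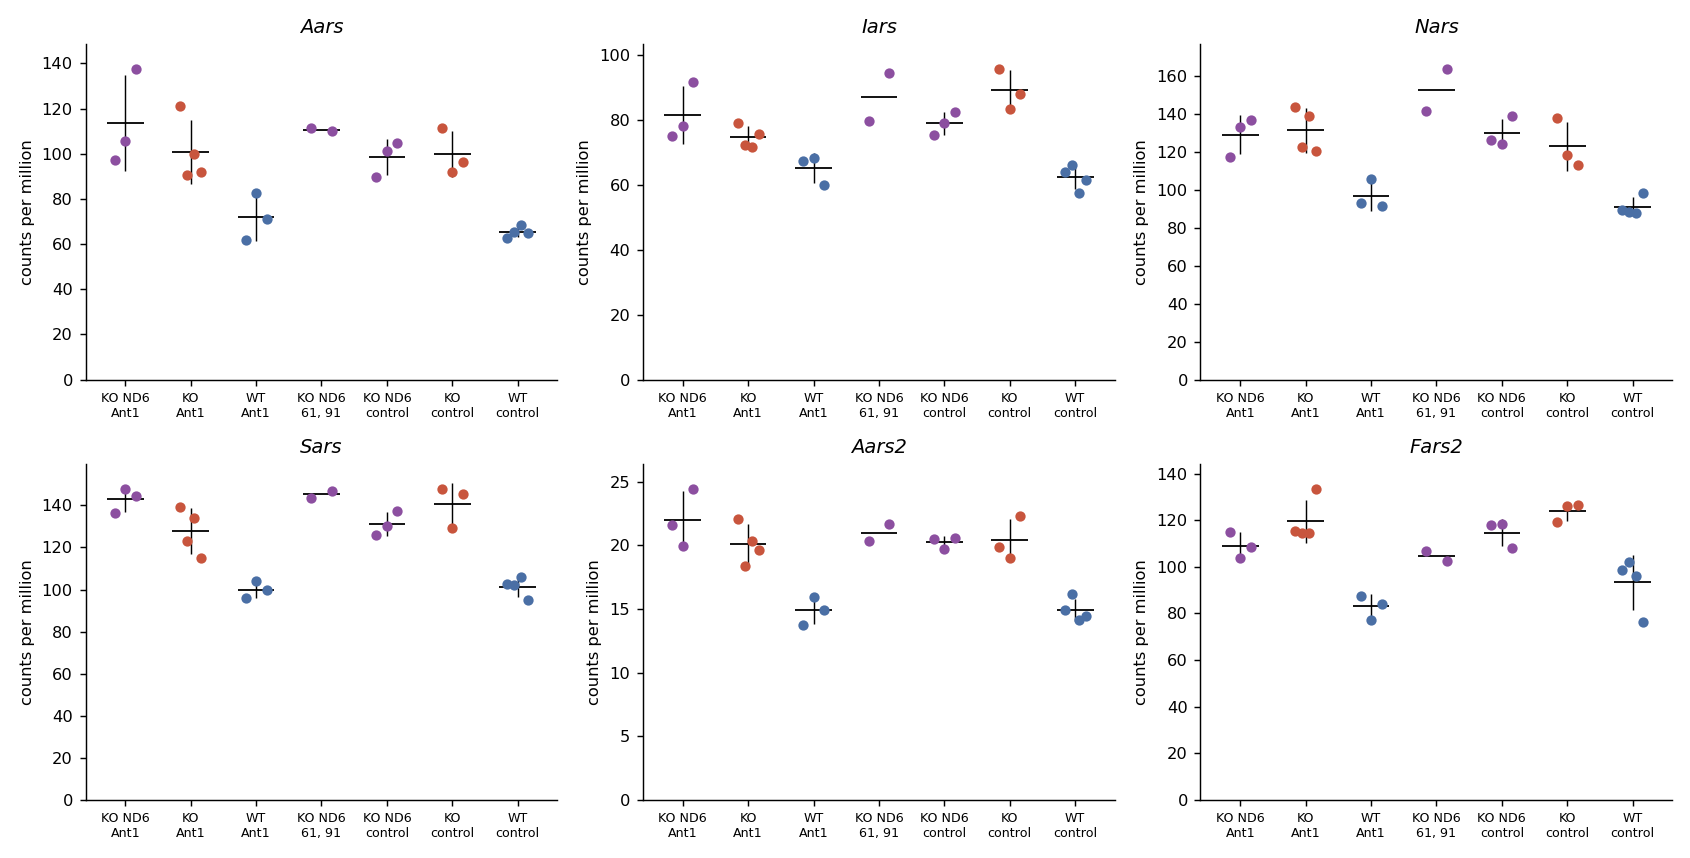
CPM of Aars, Sars, Nars, Iars, Aars2 and Fars2 in each heart (points) by group, with the mean as a line and the SD as a bar where a group has more than 2 hearts. In each of these genes all 15 mutant hearts (knockout and knockout ND6, whatever the vector) stand above all 7 wild type hearts.

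Eprs, the fused glutamyl and prolyl enzyme of the complex, had the largest cytosolic rise of knockout ND6 hearts with the Ant1 vector. It read 133, 139 and 178 CPM there and 130, 108, 127 and 123 CPM in knockout hearts, against 81.8, 113 and 84.5 CPM in wild type hearts, of which heart 81 overlapped the knockout hearts. With the control vector it read 112, 122 and 120 CPM in knockout ND6 and 110, 92.5 and 108 CPM in knockout hearts, against 84.1, 83.0, 89.7 and 92 CPM in wild type hearts. The log2 difference was 0.69 ± 0.12 (SE) in knockout ND6 hearts with the Ant1 vector (edgeR, adjusted p = 0.00053), and the knockout difference with the control vector, 0.24 ± 0.11, was not called (adjusted p = 0.155). The call with the control vector was lost without knockout ND6 heart 21 or 22, and the knockout call with the Ant1 vector without wild type heart 80 or 83 or knockout heart 20 or 22.

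Cars, for cysteine, was called in knockout ND6 hearts with both vectors and Yars, for tyrosine, in both mutants with the control vector. Cars read 39.6, 40.5 and 40.9 CPM in knockout ND6 and 35.6, 29.8 and 33.0 CPM in knockout hearts with the control vector, against 25.7, 29.6, 30.0 and 24.4 CPM in wild type hearts, and knockout heart 36 lay within the wild type range. In hearts given the Ant1 vector Cars read 38.8, 40.2 and 42.6 CPM in knockout ND6 and 49.3, 30.6, 39.4 and 34.2 CPM in knockout hearts, against 24.4, 32.5 and 30.6 CPM in wild type hearts, and knockout heart 21 lay within the wild type range. Yars read 58.5, 56.0 and 56.2 CPM in knockout ND6 and 66.2, 71.8 and 63.2 CPM in knockout hearts with the control vector, against 46.2, 46.5, 48.1 and 41.5 CPM in wild type hearts. Its groups did not overlap there, while with the Ant1 vector 1 knockout and 1 knockout ND6 heart, at 47.3 and 48.2 CPM, lay within the wild type range of 42.3 to 49.9 CPM. Lars, for leucine, was called once, in knockout ND6 hearts with the control vector (0.22), and Hars, for histidine, once, in knockout ND6 hearts with the Ant1 vector (0.26). The Cars call after the Ant1 vector was lost without knockout ND6 heart 37 or wild type heart 80. The Lars call held in 4 of 13 alternatives, the Hars call in 9 of 14 and the Yars call in knockout ND6 hearts in 6 of 13.

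Of the cytosolic genes 8 passed in none of the 4 comparisons: Dars, Farsb, Kars, Qars, Rars, Tars, Vars and Wars. Qars, the glutaminyl enzyme, was nearest to no difference, between -0.08 and 0.08 on the log2 scale. Tars, whose promoter holds the response element, read 20.5, 20.9 and 20.2 CPM in knockout ND6 and 21.9, 22.9 and 24.6 CPM in knockout hearts with the control vector, against 21.6, 22.5, 20.2 and 18.9 CPM in wild type hearts. Of the other genes with the element, Aars and Gars were called in all 4 comparisons, Iars in 3 and Yars in 2. Sars, Farsa and Mars, without a match to the response element in their windows, were called in all 4. Of the 8 enzymes of the multisynthetase complex, 2 and 4 were called higher in knockout and knockout ND6 hearts with the control vector and 2 and 3 with the Ant1 vector, and of the 12 other cytosolic genes 6 and 7, then 5 and 7. Of all genes 8.19% and 6.71%, then 5.37% and 10.8%, were called higher in the same order of comparisons, and with so few genes the subsets were not compared by a test.

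Among the mitochondrial enzymes tested, 2 were called higher in all 4 comparisons and 8 in none. Aars2, the alanyl enzyme, read 20.5, 19.7 and 20.6 CPM in knockout ND6 and 19.8, 19.0 and 22.3 CPM in knockout hearts with the control vector, against 14.9, 16.1, 14.1 and 14.4 CPM in wild type hearts. In Ant1-vector hearts it read 21.6, 20.0 and 24.4 CPM in knockout ND6 and 22.1, 18.4, 20.4 and 19.6 CPM in knockout hearts, against 13.8, 15.9 and 14.9 CPM in wild type hearts. The mutant and wild type hearts did not overlap, and Aars2 was called in all 4 comparisons with log2 differences of 0.43 to 0.56. Fars2, the phenylalanyl enzyme, read 118, 118 and 108 CPM in knockout ND6 and 119, 126 and 126 CPM in knockout hearts with the control vector, against 98.8, 102, 96.2 and 76.2 CPM in wild type hearts. After the Ant1 vector it read 115, 104 and 109 CPM in knockout ND6 and 115, 115, 115 and 133 CPM in knockout hearts, against 87.4, 77.3 and 84.2 CPM in wild type hearts. It too was called in all 4, at 0.30 to 0.53, though for knockout ND6 with the control vector the call held in 7 of 13 alternatives and was lost without wild type heart 70 or any 1 of the 3 knockout ND6 hearts. For alanine and for phenylalanine the enzymes of both compartments were called higher in each comparison, with Farsa as the cytosolic gene.

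Vars2, for valine, was called in 3 of the 4, with 0.30 ± 0.10 (SE) and adjusted p = 0.062 (edgeR) in knockout hearts with the Ant1 vector. Rars2, for arginine, read 18.3, 18.9 and 24.0 CPM in knockout ND6 and 20.3, 21.5 and 25.9 CPM in knockout hearts with the control vector, against 14.5, 15.8, 15.2 and 14.5 CPM in wild type hearts, and was called in both. With the Ant1 vector it spread more, with 24.8, 22.7 and 16.6 CPM in knockout ND6 and 22.0, 20.4, 22.7 and 15.2 CPM in knockout hearts, against 17.4, 17.2 and 16.2 CPM in wild type hearts, with overlap in both, and was called in neither. The knockout ND6 calls of Vars2 and Rars2 with the control vector were lost without wild type heart 23, 24, 25 or 70 or knockout ND6 heart 22, and the knockout calls without knockout heart 35 for Vars2 and 38 for Rars2. Sars2 and Yars2 were called in knockout hearts with the control vector (0.41 and 0.39) and in no other comparison with wild type, and Lars2 in knockout ND6 hearts with the control vector (0.39). The Sars2 call held in 5 of 12 alternatives, the Yars2 call in 11 of 12 and the Lars2 call in 5 of 13. Cars2, Ears2, Iars2, Mars2 and Tars2 were called in none.

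Against wild type, calls in the other direction were limited to 3 mitochondrial genes, 1 of 15 in each of 3 comparisons. Of all genes, 6.23% were called lower in knockout hearts with the control vector. With the Ant1 vector 4.53% were lower in knockout and 8.71% in knockout ND6 hearts. Each count of 1 thus lay near the share of all genes. Wars2, for tryptophan, read 5.85, 5.72 and 6.41 CPM in knockout hearts with the control vector, against 7.71, 8.09, 7.26 and 7.58 CPM in wild type hearts, a log2 difference of -0.35 ± 0.11 (SE; edgeR, adjusted p = 0.0367). Nars2 read 18.1, 17.6, 19.1 and 17.9 CPM in knockout hearts with the Ant1 vector, against 21.4, 22.8 and 22.1 CPM in wild type hearts (-0.28 ± 0.07, adjusted p = 0.0154), while cytosolic Nars was called higher in the same hearts. Hars2 read 12.2, 12.2 and 10.1 CPM in knockout ND6 hearts with the Ant1 vector, against 14.7, 13.2 and 15.1 CPM in wild type hearts (-0.32 ± 0.11, adjusted p = 0.0483), where cytosolic Hars was called higher. The Wars2 call held in 4 of 12 alternatives, the Hars2 call in 5 of 14 and the Nars2 call in 10 of 14, the last being lost without wild type heart 81 or 83. Hars and Hars2 lie head to head on chromosome 18 with overlapping annotations, and the sources used here do not say whether reads were assigned by strand.

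Grouped by the fold of the catalytic domain, 7 of the 8 genes called higher in each of the 4 comparisons were class II enzymes, Aars, Farsa, Gars, Nars, Sars, Aars2 and Fars2, out of 16 class II genes tested. Mars was the class I gene among them, out of 18. Eprs, which joins a domain of each class, was called in 3. This grouping was counted on calls already made, and the 2 comparisons of each vector share their wild type hearts, so it carries no test. Of all 15403 genes, 361 (2.34%) were called higher in all 4.

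Across all mutant hearts, with hearts 61 and 91 among them, 6 synthetases stood above every wild type heart whatever the vector. These mutant hearts included hearts given the Ant1 vector, with Slc25a4 at up to 241 CPM. Aars ranged from 89.5 to 138 CPM (median 101) in the 15 mutant hearts, against 61.7 to 82.6 CPM (median 65.3) in the 7 wild type hearts. Fars2 ranged from 102.5 to 133 CPM in mutant hearts, against 76.2 to 102.0 CPM in wild type hearts, the narrowest gap of the 6. The others were Iars, Nars, Sars and Aars2. Of all 15403 genes, 358 (2.32%) showed the same complete separation upward and 182 (1.18%) downward, with 0 synthetases among those below.

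The mean log2 CPM over the genes of each set put the difference between compartments into 1 value per heart. The cytosolic set averaged 6.01 ± 0.03 in knockout ND6 hearts and 6.02 ± 0.03 in knockout hearts with the control vector, against 5.74 ± 0.05 in wild type hearts (SD over 3, 3 and 4 hearts). In hearts given the Ant1 vector it averaged 6.03 ± 0.05 in knockout ND6 and 5.98 ± 0.07 in knockout hearts, against 5.74 ± 0.06 in wild type hearts (SD over 3, 4 and 3 hearts). The cytosolic means of mutant and wild type hearts did not overlap. The mitochondrial set averaged 4.64 ± 0.03 in knockout ND6 and 4.70 ± 0.04 in knockout hearts with the control vector, against 4.53 ± 0.06 in wild type hearts. Given the Ant1 vector, it averaged 4.66 ± 0.03 in knockout ND6 and 4.67 ± 0.06 in knockout hearts, against 4.58 ± 0.02 in wild type hearts. The mitochondrial minus the cytosolic mean was lower in mutant hearts, by 0.16 in knockout ND6 and 0.11 in knockout hearts with the control vector and by 0.21 in knockout ND6 and 0.15 in knockout hearts with the Ant1 vector. Its highest value in a mutant heart was -1.270 and its lowest in a wild type heart -1.269, so the groups met without overlapping. The order of the sets depended on how they were summarised. Where the median log2 CPM of each set replaced the mean, the difference from wild type was larger in the mitochondrial than in the cytosolic set in knockout ND6 hearts (0.31 and 0.18) and in knockout hearts (0.44 and 0.30) with the control vector, and nearly equal with the Ant1 vector (0.22 and 0.21 in knockout ND6, 0.21 and 0.22 in knockout hearts). Neither summary carries a test, so no difference between the sets is drawn from them.

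**Figure D3:**
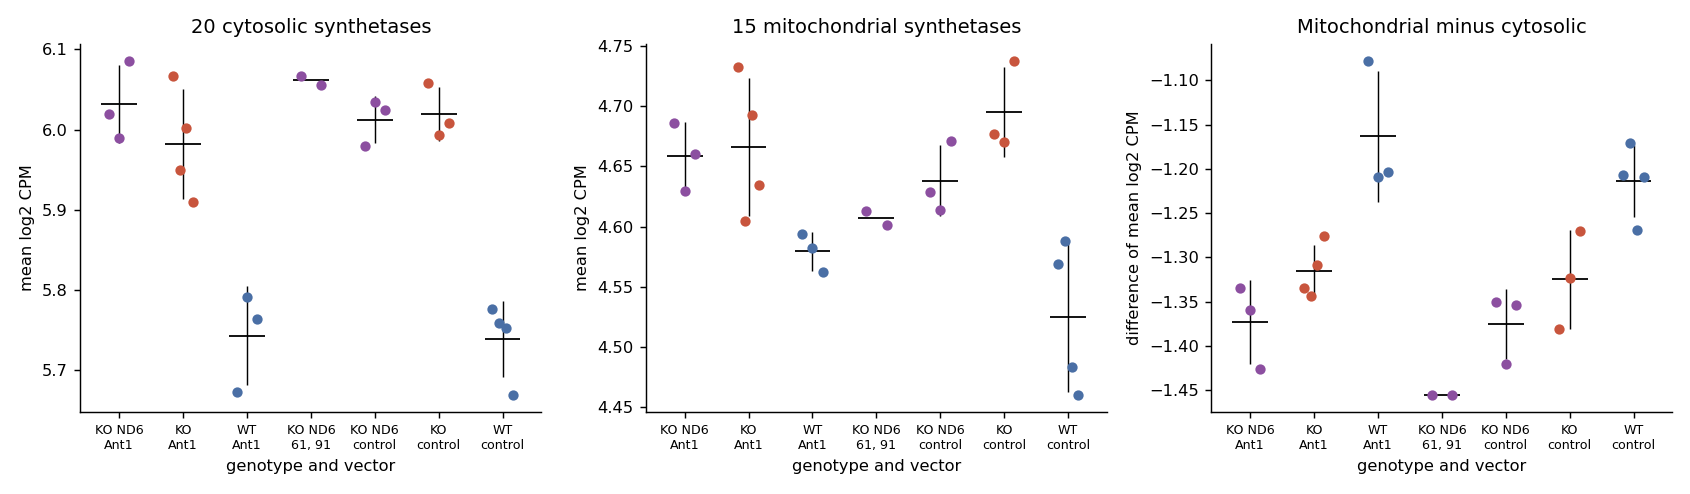
Mean log2 CPM of the 20 cytosolic and 15 mitochondrial genes and the mitochondrial minus cytosolic difference in each heart (points) by group, with group means as lines and SD as bars. Cytosolic means of mutant hearts (knockout and knockout ND6) sit above all wild type hearts. The mitochondrial minus cytosolic difference of these means sits lower, an order that medians over the genes did not keep.

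No synthetase was called between the mutant genotypes. Knockout ND6 against knockout hearts gave 0 of 35 genes with either vector in edgeR and in DESeq2, where 1.06% of all genes were called with the control vector and 1.66% with the Ant1 vector. At an unadjusted p under 0.05 there were 6 and 3 genes. Among the largest differences with the control vector was Cars, at 0.30 ± 0.13 (SE; edgeR, adjusted p = 0.301), and with the Ant1 vector Eprs, at 0.30 ± 0.11 (adjusted p = 0.179). The 95% interval of the Aars difference ran from -0.27 to 0.23 with the control vector, so differences within that range were not excluded with 3 hearts a group. The larger differences of Cars and Eprs were not called either. The libraries were deposited in 14 count tables of 8 libraries, and no label says whether a table was a sequencing run. Repeat libraries fitted singly with their count table as a covariate gave 3 calls with each vector. These were Cars, Kars and Sars2 (0.37, 0.19 and -0.42) with the control vector. With the Ant1 vector they were Aars, Eprs and Sars (0.27, 0.32 and 0.19). That fit counts libraries of 1 heart largely as separate units and called 14.3% and 13.5% of all its genes in these comparisons, so 3 of 35 is below its share of all genes.

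The Ant1 vector was set against the control vector within each genotype. Within a genotype the vectors sat in different count tables, so vector and table cannot be told apart. With the Ant1 vector, Slc25a4 read 174 to 241 CPM in knockout and 0.732 to 66.7 CPM in knockout ND6 hearts. Wild type hearts with that vector read 8968 to 10260 CPM. The counts in mutant hearts thus concern Slc25a4 levels far under those of wild type hearts. In wild type hearts 0 of 35 genes were called in edgeR and DESeq2 (2 at an unadjusted p under 0.05), where 0.117% of all genes were. In knockout ND6 hearts 0 were called by either tool (2 unadjusted), where 2.53% of all genes were. In knockout hearts 3 were called, where 5.47% of all genes were, and DESeq2, which called 9.31% of all genes, called 5, adding Iars and Rars as lower. Dars, the aspartyl enzyme of the complex, read 153, 183, 178 and 154 CPM in knockout hearts with the Ant1 vector, against 208, 206 and 206 CPM in those with the control vector (-0.31 ± 0.09 SE, edgeR, adjusted p = 0.0443). Nars2 read 18.1, 17.6, 19.1 and 17.9 CPM in the Ant1-vector knockout hearts, against 22.9, 23.2 and 21.8 CPM in the control-vector knockout hearts (-0.32 ± 0.07, adjusted p = 0.0151). Lars2, for leucine, read 13.4, 10.9, 12.8 and 11.8 CPM in the Ant1-vector knockout hearts, against 8.99, 8.48 and 9.55 CPM in the control-vector knockout hearts (0.44 ± 0.13, adjusted p = 0.0496). In these 3 genes the groups did not overlap. Leaving out knockout control-vector heart 35 or 36 left 0 calls, and leaving out control-vector heart 38 or Ant1-vector heart 20 or 22 left 1. Lars2 also read higher with the Ant1 vector in wild type hearts, at 10.0, 12.9 and 11.8 CPM, against 7.98, 9.16, 7.55 and 8.76 CPM with the control vector, a difference of 0.47 that was not called.

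The tests of whether the genotype difference itself changed with the vector gave 0 of 35 genes for knockout and for knockout ND6 hearts in edgeR and DESeq2 (4 and 0 at an unadjusted p under 0.05), where 0.5% and 0.273% of all genes were called. For Aars the change in the genotype difference was -0.12 ± 0.17 (SE) in knockout and 0.07 ± 0.18 in knockout ND6 hearts (edgeR, adjusted p = 0.795 and 0.924). The knockout differences with the Ant1 vector and with the control vector share no heart. Across the 35 genes they had r = 0.688 and rho = 0.721, with 31 of the same sign. Over all 15403 genes they had r = 0.19 and rho = 0.297, with 9645 of the same sign. For knockout ND6 hearts these were r = 0.84, rho = 0.847 and 29 of 35, against r = 0.387, rho = 0.452 and 10699 of 15403. The set of all genes was not matched to the synthetases in counts per gene, so the values are not like for like. These are correlations across genes, which are not independent replicates.

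**Figure D4:**
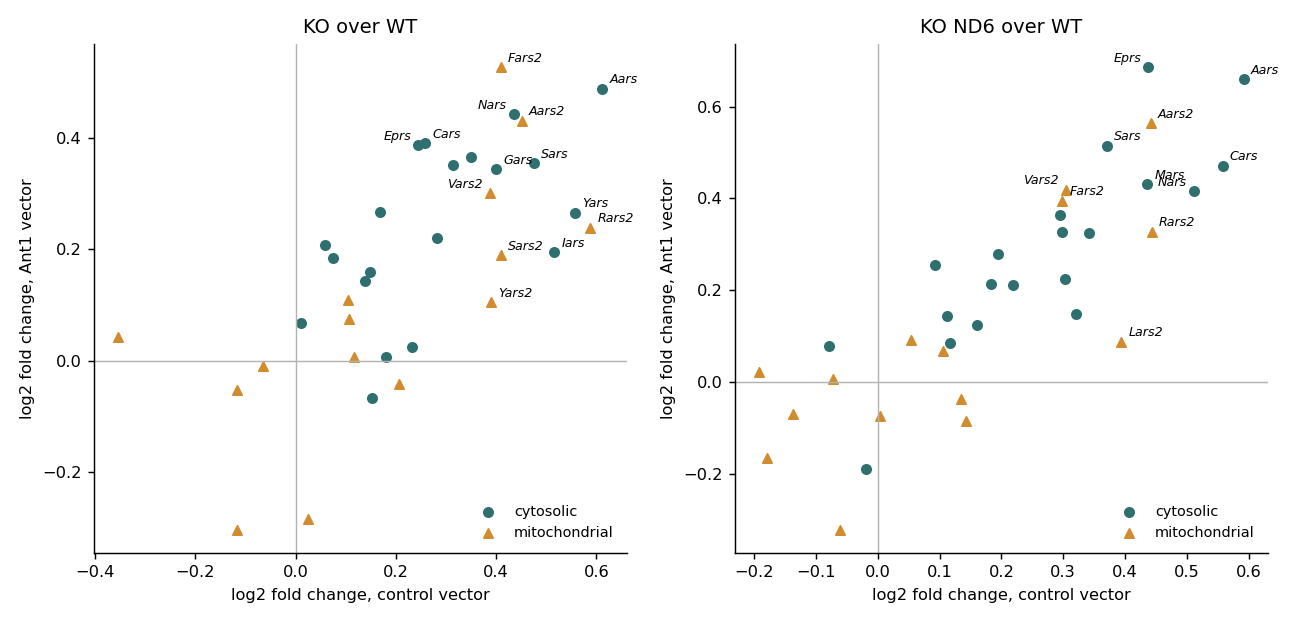
Log2 difference from wild type of each synthetase with the control vector (x axis) and with the Ant1 vector (y axis), for knockout hearts (left) and knockout ND6 hearts (right), with cytosolic genes as circles and mitochondrial genes as triangles. Aars, Nars, Sars and Aars2 lie at the upper right in both genotypes, and Wars2, called lower in knockout hearts with the control vector, lies near 0 with the Ant1 vector.

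Each count table held hearts of more than 1 group, but few mutant hearts shared tables with wild type hearts. None of the 3 knockout ND6 hearts with the Ant1 vector did, so their comparison with wild type ran only between tables. Knockout heart 35 shared tables with wild type hearts 23, 24 and 25 and stood above all 3 in 17 of 20 cytosolic and 8 of 15 mitochondrial genes, with a cytosolic mean higher by 0.30 on the log2 scale. Knockout ND6 heart 22 stood above wild type heart 70 of its tables in 19 of 20 cytosolic and 11 of 15 mitochondrial genes (0.36). Heart 70 had the lowest cytosolic mean of all wild type hearts, 5.669 against 5.752 to 5.776 in the others with the control vector. The share of all genes that stood above in the same way was not counted for any of these hearts. In Ant1-vector hearts, knockout heart 20 stood above wild type hearts 81 and 83 in 15 of 20 and 10 of 15 (0.29). With the table as a covariate, 9 cytosolic and 4 mitochondrial genes were called in knockout and 12 and 4 in knockout ND6 hearts with the control vector, and 10 and 3 in each with the Ant1 vector. That fit called 21.6% and 19.4% of its 12599 genes with the control vector and 13% and 17.3% with the Ant1 vector, in knockout and knockout ND6 hearts in that order, so the mitochondrial counts lay near the share of all genes.

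The wider amino acid response was counted next to the synthetases, since ATF4 is known to act on both. Of 24 tested genes of that response, 3 were called higher and 6 lower in knockout ND6 hearts and 0 higher and 4 lower in knockout hearts with the control vector (edgeR), where 6.71% and 5.97% of all genes were higher and lower in knockout ND6 and 8.19% and 6.23% in knockout hearts. After the Ant1 vector 1 was higher and 8 lower in knockout ND6 and 1 higher and 4 lower in knockout hearts, where 10.8% and 8.71% of all genes were higher and lower in knockout ND6 and 5.37% and 4.53% in knockout hearts. The other 15 to 20 genes were not called. Atf4 itself was called in knockout ND6 hearts with the control vector (0.37 ± 0.11 SE, adjusted p = 0.036) and in knockout hearts with the Ant1 vector (0.38 ± 0.12, adjusted p = 0.042), and not in the other pair. Slc7a1, a carrier of cationic amino acids, was lower in all 4 comparisons, between -1.06 and -0.43 on the log2 scale. Asns, asparagine synthetase, was lower in 3, by -1.02 ± 0.24 in knockout hearts with the control vector. Its counts were low, at 25 to 80 per heart. Ddit3 and Shmt2 were called higher with Atf4 in knockout ND6 hearts with the control vector. Ddit3 read 83.95 to 102.5 CPM there, against 32.89 to 65.33 CPM in wild type hearts.

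Other cell types also differed between these groups. Summed fibroblast markers were 2039 to 2228 CPM in knockout ND6 and 1732 to 2162 CPM in knockout hearts with the control vector, against 2659 to 2786 CPM in wild type hearts, and 3 and 5 of the 8 were called lower. With the Ant1 vector they were 1959 to 2319 CPM in knockout ND6 and 2011 to 2401 CPM in knockout hearts, against 2390 to 2480 CPM in wild type hearts. In these Ant1-vector comparisons Gsn was called lower in both mutants and Col1a1 higher in knockout ND6 hearts. Cardiomyocyte markers had 0 of 8 called in the control-vector comparisons, while with the Ant1 vector Ryr2 was called lower in both mutants, and Tnni3 lower and Myh6 higher in knockout ND6 hearts. Summed endothelial markers were 696 to 753 CPM in knockout ND6 and 609 to 661 CPM in knockout hearts with the Ant1 vector, against 558 to 628 CPM in wild type hearts, with 3 of 7 called higher and 1 lower in knockout ND6 hearts. They were 533 to 592 CPM in knockout ND6 and 509 to 516 CPM in knockout hearts with the control vector, against 490.5 to 549.9 CPM in wild type hearts, with Cdh5 called higher in knockout hearts. Summed macrophage markers were 99.75 to 128.5 CPM in knockout ND6 and 122.7 to 158.2 CPM in knockout hearts with the control vector. Wild type hearts there read 145.2 to 187.5 CPM. With the Ant1 vector knockout ND6 hearts read 111.6 to 171.7 CPM, knockout hearts 108.6 to 147.4 CPM and wild type hearts 154.3 to 195.0 CPM. C1qb was called lower in knockout ND6 hearts with either vector, C1qc with the control vector, and Adgre1 in knockout hearts with the Ant1 vector. Albumin (Alb), a liver gene, read up to 1.72 CPM in all other hearts but 159, 12.6, 10.8 and 0.2 CPM in wild type hearts 23, 24, 25 and 70 with the control vector. For the marker counts with the control vector, 6.71% of all genes were called higher and 5.97% lower in knockout ND6 hearts. In knockout hearts these shares were 8.19% and 6.23%. With the Ant1 vector they were 10.8% and 8.71% in knockout ND6 and 5.37% and 4.53% in knockout hearts. The part of these marker differences in the synthetase differences was not tested.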

How the data were processed

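The authors deposited unnormalised counts, 1 value per amplicon and AmpliSeq library, on build mm10 per the labels. Aligner, counter and strand setting are not stated in the sources used here. Of 115 samples, 3 are single-nucleus libraries and were not analysed here. Repeat libraries (same number, genotype and code in the title) were summed to 1 heart, which reads the number as the heart although no label says so. P values measure the spread between these hearts. Of 112 bulk libraries, 80a and 80b, with conflicting labels, entered no group, and 0 other sample columns were left unused.

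One edgeR 4.0.16 model (R 4.3.3) held all 7 groups, with filterByExpr, TMM scaling (factors 0.959 to 1.058) and the quasi-likelihood test. P values were adjusted over 15403 genes by Benjamini-Hochberg, with 0.05 as the threshold. Log2 values use a prior count of 2. Intervals are 95%. Alternatives used DESeq2 1.42.0, no filter, limma 3.58.1 voom with the library table as covariate (within-heart correlation 0.197), only the compared groups, other placements of the disputed libraries, and each heart left out. The scripts were tested on simulated data.

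The genes, lists and tests were chosen with earlier results of these data known. A synthetase was described heart by heart where it passed in at least 2 of 9 comparisons or had its set's largest rise or fall in 1. The text gives part of those allowed, and of the other lists mainly the genes with the smallest adjusted p. Promoters came from RefSeq GRCm38.p6 for 27 of 36 genes. Gene coordinates came from GENCODE for mm10.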

Additional observations from a re-analysis of the deposited data

Results flagged for a closer look

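In 5 of 70 sets of 4 hearts, 1 heart stood far from the others by the gap between its value and its nearest neighbour. Chance gives about 1 in 20. In knockout hearts with the Ant1 vector, heart 27 read 50.54 CPM for Hars, with the others at 49.25 to 49.39 CPM, and 133.4 CPM for Fars2, with the others at 114.6 to 115.3 CPM. Heart 21 of that group read 6.004 CPM for Wars2, with the others at 7.886 to 8.081 CPM. In wild type hearts with the control vector, heart 70 read 98.45 CPM for Nars, with the others at 87.6 to 89.36 CPM, and 49.04 CPM for Rars, with the others at 60.53 to 62.71 CPM. The libraries of heart 70 sat in other count tables than those of the 3 other wild type hearts of its group. The part of the tables in its values was not tested.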

How the results depend on the processing

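No paired analysis was made, because no label pairs hearts across groups and heart numbers restart between groups. Of 58 calls, 23 were kept under every alternative tried, all between mutant and wild type hearts, among them all 4 of Nars, Sars and Aars2, and no called gene changed sign. The count of 16 synthetases in knockout ND6 against wild type hearts with the control vector was 9 without the low-count filter and 6 to 12 with a heart left out. In knockout hearts with the Ant1 vector 10 fell to 5 with only the compared groups in the fit and lay between 5 and 12 with a heart left out. In knockout ND6 hearts with that vector 14 fell to 8 with only the compared groups and lay between 9 and 12 with a heart left out. Knockout ND6 against knockout hearts gave 3 with the table covariate for either vector, against 0. The 3 calls of the Ant1 vector in knockout hearts became 1 without the filter, 5 in DESeq2, 0 with only the compared groups and 0 to 4 with a heart left out. Leaving out knockout heart 27 and knockout ND6 heart 37, an alternative chosen after seeing the data, gave 14 and 12 calls against wild type hearts with the Ant1 vector.

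With each heart's median log2 CPM over a set in place of its mean, a quantity other than the median of the genes' own differences, the set differences from wild type were 0.44 (mitochondrial, knockout, control vector), 0.18 and 0.31 (cytosolic and mitochondrial, knockout ND6, control vector), 0.21 (mitochondrial, knockout, Ant1 vector), and 0.21 and 0.22 (knockout ND6, Ant1 vector). Between knockout ND6 and knockout hearts with the control vector they were -0.12 and -0.13 (cytosolic and mitochondrial), and between the Ant1 and the control vector -0.076 and 0.111 in wild type, -0.16 and -0.12 in knockout and, for the cytosolic set, -0.041 in knockout ND6 hearts. Against wild type with the control vector this put the mitochondrial above the cytosolic difference, the opposite order to the means. The causes were not tested. With 3 or 4 hearts a group, differences under about 0.2 on the log2 scale were rarely called.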

Other observations

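Partners of the mitochondrial synthetases were counted against wild type hearts. Of 17 tested genes for maturing and charging mitochondrial tRNA, 5 were called higher in knockout ND6 and 6 in knockout hearts with the control vector, 4 in knockout ND6 and 1 in knockout hearts with the Ant1 vector, and 0 lower (edgeR). Of all genes 6.71% were called higher in knockout ND6 and 8.19% in knockout hearts with the control vector, and 10.8% in knockout ND6 and 5.37% in knockout hearts with the Ant1 vector, so the last count is near the share of all genes. Elac2, which trims the 3′ end of tRNA precursors, was higher in all 4, by 0.57 and 0.38 with the control vector and 0.64 and 0.48 with the Ant1 vector on the log2 scale. Qrsl1, a subunit of the enzyme that makes glutaminyl-tRNA in mitochondria, was called in 3, by 0.28, 0.58 and, in knockout ND6 hearts with the Ant1 vector, 0.33. In knockout hearts with the Ant1 vector, Trmt5, Trnt1 and Mtfmt were lower than in knockout hearts with the control vector, by -0.60, -0.54 and -0.46 (edgeR, adjusted p = 0.00293, 0.00473 and 0.0316).

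Of 18 cytosolic translation factors, 4 were called higher in knockout ND6 and 3 in knockout hearts with the control vector, and 5 higher with 1 lower in knockout ND6 and 3 higher in knockout hearts with the Ant1 vector, to be read against the same shares of all genes. Eif2b4, a subunit of the exchange factor that recharges eIF2, was higher in all 4, by 0.33 to 0.58. Of the 3 scaffold genes of the multisynthetase complex, Eef1e1 was called once, in knockout hearts with the control vector (0.47).

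Hearts 61 and 91, left out of every tested comparison, averaged 6.06 log2 CPM over the cytosolic and 4.61 over the mitochondrial synthetases. They stood above wild type heart 70 of their tables in 19 and 18 of 20 cytosolic genes. Heart 70 had the lowest cytosolic mean of all wild type hearts, and the share of all genes was not counted here.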
